A study of Homo sapiens with 8 samples.

Results

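The 10 genes described here carry and restrain signalling by the IL-6 family of cytokines: the ligands IL6 and LIF, the receptor chains IL6ST, LIFR and OSMR, the transcription factor STAT3, and the inhibitors SOCS1, SOCS2, SOCS3 and CISH. They were taken by gene symbol from the deposited count table, which lists 25369 genes, and all 10 were among the 17714 genes with enough counts to be tested. The cells were UWB1.289, an ovarian cancer line that carries a truncating BRCA1 mutation (BRCA1-null), and a derivative of it transduced with BRCA1 (BRCA1+). Each line received either DMSO, the solvent control, or 0.5 uM entinostat, an inhibitor of class I histone deacetylases, for 24 h before polyadenylated RNA was sequenced. Each of the 4 groups held 2 libraries. The BRCA1+ cells are a single derived line, so the presence of BRCA1 and any other property of that line cannot be told apart. The labels do not say whether the libraries of a group came from separate cultures, so p-values measure only the spread between these libraries, which may be technical.

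Cytokines of the IL-6 family signal through receptors that share the chain encoded by IL6ST, known as gp130. Ligand binding activates JAK kinases bound to the receptor, which phosphorylate STAT3, and phosphorylated STAT3 enters the nucleus and binds promoters at elements built on the palindrome TTCNNNGAA. SOCS genes, SOCS3 and CISH among them, are induced through STAT factors and their products damp the receptors and JAKs, closing a feedback loop. Transcript levels report neither phosphorylation nor secreted protein.

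Because STAT and NF-kB factors act on these genes through short DNA elements, the 250 bases before each deposited start site were read from hg19 and searched for 2 patterns. TTCNNNGAA, which reads the same on both strands, is the core of STAT elements. GGANTTTCC, searched on both strands, is 1 form of an NF-kB element, the kind known from the IL6 promoter. The TTCNNNGAA pattern was found in 4 of the 10 windows against 6.27% of 25051 windows of the same length over all listed genes. The GGANTTTCC pattern was found in 1 of the 10, against 1.25% of the windows. A match is a run of letters and not a measured binding site, and the absence of a match says only that these letters are not in the window.

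Shown are the windows of CISH, the inhibitor with the most STAT-type matches, of SOCS2, the inhibitor with the largest difference between the lines in DMSO and no match, and of IL6, the only member with the NF-kB-type match. Each reads 5′ to 3′ on the gene's strand and ends at the base before the deposited start, and capitals mark the matches. CISH lies at chr3:50649263-50649512 on the minus strand, SOCS2 at chr12:93963348-93963597 on the plus strand and IL6 at chr7:22766516-22766765 on the plus strand.
CISH: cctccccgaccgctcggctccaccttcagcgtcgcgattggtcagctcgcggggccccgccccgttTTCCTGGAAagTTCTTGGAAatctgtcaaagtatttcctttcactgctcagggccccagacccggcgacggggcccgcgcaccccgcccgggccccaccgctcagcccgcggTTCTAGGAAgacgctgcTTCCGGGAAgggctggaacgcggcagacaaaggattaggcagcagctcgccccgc
SOCS2: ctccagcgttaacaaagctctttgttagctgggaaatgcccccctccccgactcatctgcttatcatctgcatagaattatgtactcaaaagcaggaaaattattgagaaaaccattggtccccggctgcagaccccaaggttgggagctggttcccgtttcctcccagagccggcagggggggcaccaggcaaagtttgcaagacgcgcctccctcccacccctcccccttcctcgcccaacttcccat
IL6: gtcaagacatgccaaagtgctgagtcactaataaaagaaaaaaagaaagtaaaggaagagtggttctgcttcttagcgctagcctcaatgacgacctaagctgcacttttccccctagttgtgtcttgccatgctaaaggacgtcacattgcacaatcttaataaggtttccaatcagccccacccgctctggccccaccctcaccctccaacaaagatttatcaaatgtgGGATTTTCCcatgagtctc

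Positions are those of the first base of a match, counted from -1 at the base before the start. CISH had 4 matches, at -184, -173, -72 and -55, which form a distal and a proximal pair. LIF had TTCTTAGAA at -110 and LIFR had TTCCTTGAA at -165. In IL6, GGATTTTCC stood at -19. The windows differed in base composition, with a G+C content of 45.2% for LIFR, 45.6% for IL6, 55.6% for SOCS2 and 67.2% for CISH. The 10 deposited starts lay 0 to 92 bases from the nearest start in the GENCODE annotation, with LIF the farthest.

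Total counts per library ran from 31900158 to 53549893, so that the floor of 3 counts lay between 0.0552 and 0.0946 CPM, the count scaled to the library total after edgeR's TMM adjustment. Log2 CPM values of libraries of the same group correlated across genes at 0.991 to 0.992, against 0.982 to 0.987 between treatments of 1 line and 0.952 to 0.964 between lines. BRCA1 itself ranged from 92.4 to 133 CPM in the BRCA1+ libraries and from 17.6 to 22.4 CPM in the BRCA1-null libraries, in the order that the labels state. All 10 epithelial and ovarian markers were above 0 in every library, with a summed level of 14106 to 18532 CPM, while WT1 had 20 counts or fewer in each.

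The members spanned a wide range of abundance. Over all 8 libraries, STAT3 averaged 50.1 CPM per kilobase of transcript and stood at percentile 90.4 of the tested genes. IL6ST followed at 12.9, LIF at 9.78, OSMR at 6.52, SOCS2 at 5.46 and SOCS3 at 3.14 CPM per kilobase. IL6 averaged 1.43, SOCS1 0.678, CISH 0.343 and LIFR 0.204 CPM per kilobase, and LIFR stood at percentile 9.77. These cells thus carried abundant transcript for STAT3 and a more moderate level for the shared receptor chain, with IL6ST at percentile 68.5. Transcript was sparse for IL6 and for LIFR, the chain that LIF requires.

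The order of the levels per length was not the same in each group. In BRCA1+ cells under DMSO, SOCS2 had rank 4 at 6.30 CPM per kilobase, above OSMR at 5.50, and the libraries did not overlap. In BRCA1-null cells under DMSO, OSMR stood at 6.83 and SOCS2 at 3.00 CPM per kilobase, and SOCS2 overlapped SOCS3, which stood at 2.73. The same places held under entinostat, with SOCS2 above OSMR for the BRCA1+ line and overlapping SOCS3 for the BRCA1-null line. Among the lowest genes, SOCS1 and IL6 overlapped in both BRCA1+ groups, whereas in BRCA1-null cells SOCS1 overlapped CISH instead. LIFR and CISH overlapped in BRCA1+ cells under entinostat. For all other neighbours in the order the libraries did not overlap.

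**Figure D1:**
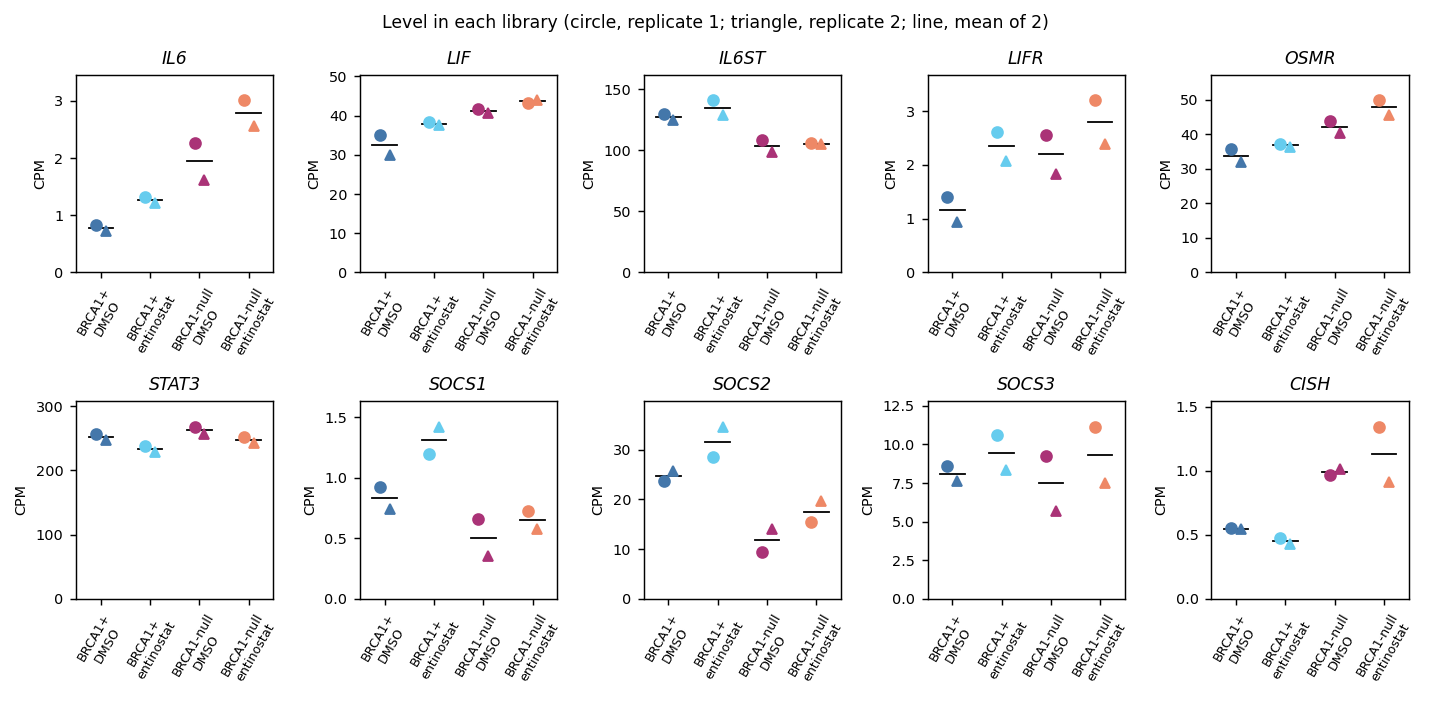
Level of each of the 10 genes in CPM in every library, by group, with circles for replicate 1, triangles for replicate 2 and a line at the mean of both; each vertical axis starts at 0 and has its own range. IL6, LIF, OSMR and CISH sit higher in BRCA1-null than in BRCA1+ cells under each treatment, and IL6ST, SOCS1 and SOCS2 sit lower.

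The main comparison asked how the absence of BRCA1 function related to these genes under the solvent. Of the 10 members, 7 differed between BRCA1-null and BRCA1+ cells at an adjusted p under 0.05 (edgeR's quasi-likelihood test, Benjamini-Hochberg over all tested genes). IL6, LIF, LIFR, OSMR and CISH were higher in BRCA1-null cells, and IL6ST and SOCS2 were lower. Across all tested genes, 42.2% were called in this comparison, 21.1% higher and 21% lower, so a differing gene is common between these lines. The median log2 difference was 0.19 over the members and 0.012 over all tested genes. In 9 members the libraries of the lines did not overlap, which held for 70.9% of all tested genes.

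**Figure D2:**
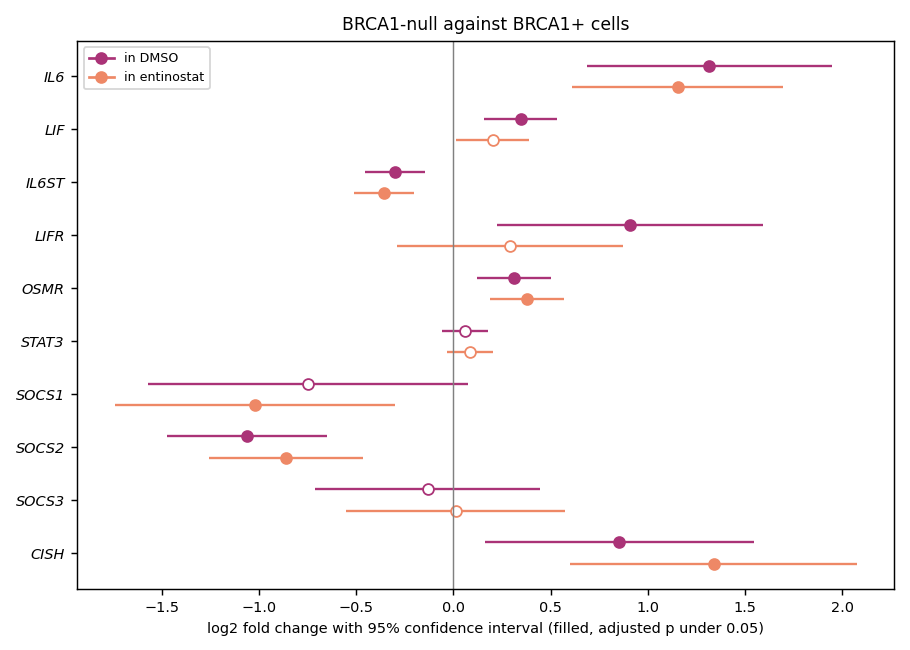
Log2 fold change of BRCA1-null against BRCA1+ cells for the 10 genes, in DMSO and in entinostat, with 95% confidence intervals; filled points have an adjusted p under 0.05. In DMSO 7 points are filled and in entinostat 6, with the largest rise in DMSO at IL6 (1.31) and the largest fall at SOCS2 (-1.06).

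IL6 (chr7:22766766-22771621, plus strand, hg19) encodes interleukin 6, the cytokine for which the family is named. Its level under DMSO was 0.825 and 0.719 CPM in the BRCA1+ libraries and 2.26 and 1.62 CPM in the BRCA1-null libraries. All these values stood above the floor, at 33 counts in each BRCA1+ library and 103 and 88 counts in the BRCA1-null libraries. The lines did not overlap, and the BRCA1-null mean was 2.49-fold higher in the fit (log2 fold change 1.31 ± 0.279, SE; adjusted p = 0.00480). The call held in all 17 alternatives, including each library left out in turn, where the log2 difference lay between 1.09 and 1.55. Its upstream sequence is the window printed with the NF-kB-type match in capitals.

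LIF (chr22:30636436-30642840, minus strand) encodes leukemia inhibitory factor, which signals through LIFR and gp130. It measured 35.1 and 29.9 CPM in BRCA1+ cells and 41.8 and 40.7 CPM in BRCA1-null cells under DMSO. The groups were apart, although the BRCA1+ libraries differed more from each other than the BRCA1-null libraries did. The log2 fold change was 0.35 ± 0.0827 (adjusted p = 0.00867). Without BRCA1+ DMSO replicate 2 it was 0.23 with an adjusted p of 0.0643.

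IL6ST (chr5:55230925-55290821, minus strand), the signal-transducing chain shared by the family's receptors, moved the other way. It measured 129 and 125 CPM in BRCA1+ cells against 108 and 98.5 CPM in BRCA1-null cells under DMSO. BRCA1-null levels were below both BRCA1+ levels, with a log2 fold change of -0.30 ± 0.0680 (adjusted p = 0.00681), or 1.23-fold lower. Without BRCA1-null DMSO replicate 2 the log2 difference was -0.23 and its adjusted p was 0.0590.

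LIFR (chr5:38475065-38595507, minus strand) pairs with gp130 for LIF, and OSMR (chr5:38845960-38935743, plus strand) does so for oncostatin M. LIFR was scarce, at 1.40 and 0.937 CPM in BRCA1+ cells and 2.55 and 1.84 CPM in BRCA1-null cells under DMSO. OSMR was at 35.8 and 31.8 CPM in BRCA1+ cells and at 43.7 and 40.2 CPM in BRCA1-null cells. For both chains each BRCA1-null library was above each BRCA1+ library. The log2 fold change was 0.91 ± 0.303 for LIFR (adjusted p = 0.0379) and 0.31 ± 0.0846 for OSMR (adjusted p = 0.0158). Both calls depended on single libraries: without BRCA1+ DMSO replicate 2 the adjusted p was 0.235 for LIFR and 0.114 for OSMR, and without BRCA1-null DMSO replicate 1 it was 0.150 and 0.0678. The LIFR call also ended without BRCA1+ entinostat replicate 2, where its adjusted p was just above the threshold. LIFR overlaps LIFR-AS1 and MIR3650, and as the sources used here do not state whether counting used strand, their reads cannot be told apart from its own.

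STAT3 (chr17:40465343-40540513, minus strand), the transcription factor through which most of these signals reach the genome, was not called between the lines. It measured 257 and 247 CPM in BRCA1+ cells and 268 and 257 CPM in BRCA1-null cells under DMSO. The libraries did not overlap by a narrow margin, and the log2 fold change was 0.06 ± 0.0528 (adjusted p = 0.397), with a 95% confidence interval from -0.06 to 0.18.

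The 4 inhibitors did not move together. SOCS2 (chr12:93963598-93970521, plus strand), whose product acts mainly on growth hormone and STAT5 signalling, measured 23.8 and 25.6 CPM in BRCA1+ cells and 9.47 and 14.0 CPM in BRCA1-null cells under DMSO. The groups stood far apart, and SOCS2 was 2.09-fold lower in BRCA1-null cells (log2 fold change -1.06 ± 0.182, adjusted p = 0.00155). This call held in all 17 alternatives, with log2 differences from -1.38 to -0.80. SOCS2 overlaps the antisense gene SOCS2-AS1, which had 17 to 48 counts per library and a log2 fold change of -0.50 ± 0.379 (adjusted p = 0.325).

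CISH (chr3:50643885-50649262, minus strand), the first described member of the SOCS family and a target of STAT5, went in the opposite direction to SOCS2. It measured 0.550 and 0.545 CPM in BRCA1+ cells and 0.967 and 1.01 CPM in BRCA1-null cells under DMSO, from 22 and 25 counts against 44 and 55 counts. The log2 fold change was 0.85 ± 0.306 (adjusted p = 0.0492), close to the threshold. The direction held in every alternative, with log2 differences from 0.82 to 0.90, but the call held in 8 of 17 and ended in DESeq2's Wald test (adjusted p = 0.214), with no filter on low counts (0.0610), with only the groups compared in the fit (0.0605) and without any 1 of the 4 DMSO libraries or the BRCA1+ entinostat libraries (0.0739 to 0.173).

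SOCS1 (chr16:11348274-11350039, minus strand) and SOCS3 (chr17:76352858-76356160, minus strand), the inhibitors that bind JAKs directly, were not called in DMSO. SOCS1 measured 0.926 and 0.741 CPM in BRCA1+ cells and 0.659 and 0.350 CPM in BRCA1-null cells, or 37 and 34 counts against 30 and 19 counts. The lines did not overlap, and the log2 fold change of -0.75 ± 0.364 had an adjusted p of 0.128. SOCS3 measured 8.60 and 7.63 CPM in BRCA1+ cells and 9.27 and 5.68 CPM in BRCA1-null cells. The BRCA1-null libraries lay on either side of the BRCA1+ libraries, and the log2 fold change was -0.13 ± 0.256 (adjusted p = 0.710) with an interval from -0.71 to 0.44. SOCS1 overlaps only the deposited span of MIR6511B1. That span appears to run over megabases, since its midpoint is not among those of the 10 nearest tested genes on either side. The overlap thus does not show that the 2 genes share reads.

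The same comparison under entinostat used 4 other libraries. Here 6 members were called: IL6, OSMR and CISH were higher in BRCA1-null cells, and IL6ST, SOCS1 and SOCS2 were lower. Across all tested genes 39.4% were called, 20.5% higher and 18.9% lower. The median log2 difference was 0.14 over the members and 0.019 over all tested genes, and the lines did not overlap for 8 members and for 69.5% of all tested genes.

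IL6 measured 1.32 and 1.21 CPM in BRCA1+ cells and 3.01 and 2.56 CPM in BRCA1-null cells under entinostat, with a log2 fold change of 1.15 ± 0.241 (adjusted p = 0.00463). IL6ST measured 141 and 129 CPM against 106 and 105 CPM, a log2 fold change of -0.36 ± 0.0683 (adjusted p = 0.00291). OSMR measured 37.3 and 36.3 CPM against 49.8 and 45.7 CPM, a log2 fold change of 0.38 ± 0.0847 (adjusted p = 0.00668). In these genes the lines were separated as they had been in the solvent. Without BRCA1+ entinostat replicate 2 the adjusted p rose to 0.0548 for IL6 and 0.0559 for OSMR.

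Among the inhibitors, SOCS2 measured 28.6 and 34.6 CPM in BRCA1+ cells and 15.4 and 19.7 CPM in BRCA1-null cells under entinostat (log2 fold change -0.86 ± 0.175, adjusted p = 0.00394). CISH measured 0.473 and 0.431 CPM against 1.34 and 0.910 CPM (log2 fold change 1.34 ± 0.327, adjusted p = 0.0100). SOCS1 measured 1.20 and 1.42 CPM against 0.725 and 0.575 CPM (log2 fold change -1.02 ± 0.320, adjusted p = 0.0308). SOCS2 and CISH thus stood on opposite sides of the BRCA1+ level in each treatment. The CISH call ended without BRCA1-null entinostat replicate 1 (adjusted p = 0.0747) or BRCA1+ entinostat replicate 2 (0.0909). The SOCS1 call ended without any 1 of the 4 entinostat libraries (adjusted p from 0.0573 to 0.191) and in DESeq2's Wald test (0.128).

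The remaining members were not called under entinostat. LIF measured 38.3 and 37.6 CPM in BRCA1+ cells and 43.3 and 43.9 CPM in BRCA1-null cells, with a log2 fold change of 0.20 ± 0.0827 (adjusted p = 0.0835). LIFR measured 2.62 and 2.07 CPM against 3.20 and 2.39 CPM, and the lines overlapped (log2 fold change 0.29 ± 0.257, adjusted p = 0.411). STAT3 measured 238 and 229 CPM against 252 and 243 CPM (log2 fold change 0.08 ± 0.0530, adjusted p = 0.244). STAT3 was again close between lines, and LIF, although apart in every library, missed the threshold. SOCS3 measured 10.6 and 8.32 CPM against 11.2 and 7.52 CPM, with a log2 fold change of 0.01 ± 0.250 whose sign changed with the scaling and the test.

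The other comparisons asked what entinostat did within each line. In BRCA1+ cells 0 of the 10 members passed the threshold in edgeR's quasi-likelihood test, against 14.1% of all tested genes (8.13% higher, 6% lower). In BRCA1-null cells 0 members passed, against 10.8% of all tested genes (7.57% higher, 3.19% lower). DESeq2's Wald test and edgeR's likelihood ratio test each called 1 member per line, LIFR in BRCA1+ cells and SOCS2 in BRCA1-null cells, both higher with entinostat. Over all tested genes they called 2495 and 3130 in BRCA1+ cells and 1668 and 2452 in BRCA1-null cells. At an unadjusted p under 0.05 the quasi-likelihood test gave 2 members in BRCA1+ cells, LIF and LIFR, and 3 in BRCA1-null cells, IL6, OSMR and SOCS2. The share of all tested genes under that unadjusted threshold was not counted, so no excess among the members can be read from this. With a term for the replicate number in the fit, the quasi-likelihood test called 3 members in BRCA1+ cells, LIF, LIFR and SOCS2. It called 2 in BRCA1-null cells, OSMR and SOCS2, and all of these were higher with entinostat. The calls over all tested genes rose too, from 2503 to 4314 in BRCA1+ and from 1906 to 3640 in BRCA1-null cells.

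The sizes of these differences can still be read with their intervals. In BRCA1+ cells LIFR went from 1.40 and 0.937 CPM in DMSO to 2.62 and 2.07 CPM with entinostat, a log2 difference of 0.99 ± 0.314 (adjusted p = 0.0673, 95% interval 0.28 to 1.70). The 4 libraries did not overlap. IL6 in the same cells had a log2 difference of 0.71 ± 0.322 (adjusted p = 0.185), SOCS1 of 0.68 ± 0.305 (0.176), SOCS2 of 0.36 ± 0.170 (0.195) and LIF of 0.23 ± 0.0844 (0.110). In all of these each entinostat library was above each DMSO library. The treatments did not overlap for 8 members in BRCA1+ cells, where 57% of all tested genes did not overlap. The LIFR call was present when the fit used only the BRCA1+ groups (adjusted p = 0.0463).

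In BRCA1-null cells SOCS2 went from 9.47 and 14.0 CPM in DMSO to 15.4 and 19.7 CPM with entinostat, a log2 difference of 0.56 ± 0.188 (adjusted p = 0.0904, 95% interval 0.14 to 0.99). IL6 had a log2 difference of 0.54 ± 0.207 (adjusted p = 0.127) and OSMR of 0.19 ± 0.0826 (0.181). For these 3 genes and for LIF and STAT3 the treatments did not overlap, and 54.7% of all tested genes did not overlap. The SOCS2 result turned into a call without BRCA1-null DMSO replicate 2 (log2 difference 0.89, adjusted p = 0.0484). STAT3 had a negative log2 difference in both lines, -0.11 ± 0.0530 in BRCA1+ cells (adjusted p = 0.206) and -0.09 ± 0.0528 for the BRCA1-null line (0.336). CISH was negative in the BRCA1+ line, at -0.29 ± 0.390 (adjusted p = 0.691), where its libraries did not overlap, and positive in the BRCA1-null line, at 0.20 ± 0.255 (0.670), where they did.

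**Figure D3:**
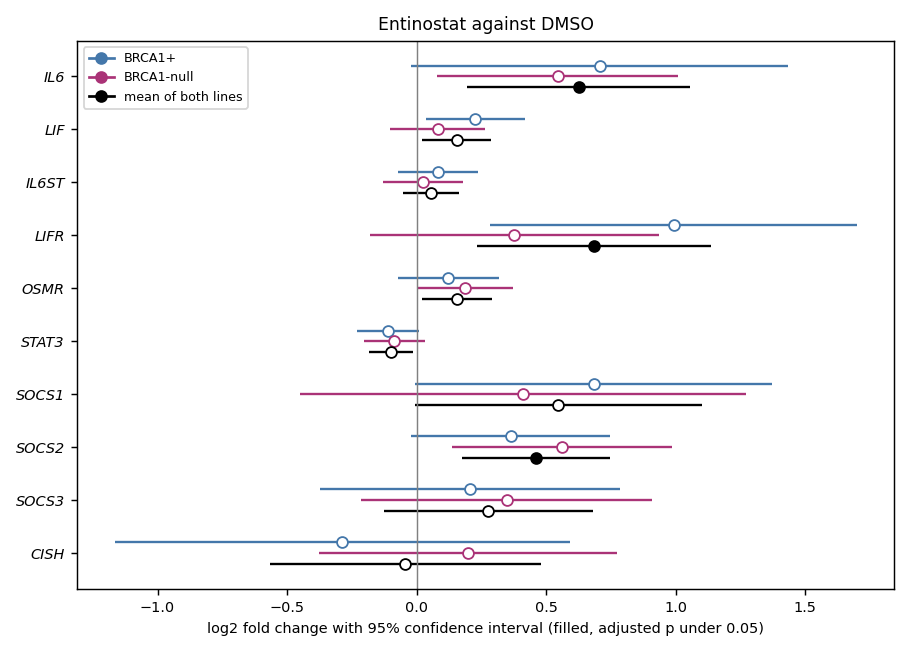
Log2 fold change of entinostat against DMSO for the 10 genes in BRCA1+ cells, in BRCA1-null cells and as the mean of both, with 95% confidence intervals; filled points have an adjusted p under 0.05. Filled points appear only for the mean of both lines, at IL6 (0.62), LIFR (0.68) and SOCS2 (0.46).

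With the effects in the 2 lines averaged, a contrast chosen after seeing the data, 3 members rose with entinostat. IL6 had a mean log2 fold change of 0.62 ± 0.191 (adjusted p = 0.0401), LIFR of 0.68 ± 0.200 (0.0335) and SOCS2 of 0.46 ± 0.127 (0.0260). Across all tested genes 26.1% were called in this contrast, 15.2% higher and 10.9% lower. The 3 members are thus close to the share over all genes. The number called fell to 0 without BRCA1+ DMSO replicate 2 or without BRCA1+ entinostat replicate 2. It fell to 1 without BRCA1+ entinostat replicate 1, BRCA1-null entinostat replicate 1 or BRCA1-null DMSO replicate 2.

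Whether entinostat acted differently in the lines was tested directly. The difference of its effects, BRCA1-null minus BRCA1+, was called for 0 members and for 0% of all tested genes, where the smallest adjusted p was 0.660. At an unadjusted p under 0.05 there were 827 genes and 0 members, the likelihood ratio test called 18 genes and DESeq2 called 11, and neither called a member. The largest difference among the members was that of LIFR at -0.62 ± 0.402 (adjusted p = 0.967), with an interval from -1.52 to 0.29. The intervals for CISH, from -0.56 to 1.54, and SOCS1, from -1.39 to 0.84, were also wide.

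The rest of the pathway was described with lists of genes other than the members. Among other IL-6 family ligands and ligand subunits, 7 of 9 were tested, and under DMSO 3 were higher and 1 lower in BRCA1-null cells, with a median log2 difference of 0.80 against 0.012 over all tested genes. Of all tested genes 21.1% were higher and 21% lower. EBI3, a subunit of IL-27, was higher by 1.23 ± 0.252 on the log2 scale (adjusted p = 0.00399), CTF1, which encodes cardiotrophin-1, by 0.80 ± 0.140 (0.00170), and CLCF1, another gp130 ligand, by 0.59 ± 0.125 (0.00488). Of 6 other receptor chains 5 were tested and 3 were higher. IL31RA, with 9 to 86 counts per library, had a log2 fold change of 2.37 ± 0.648 (adjusted p = 0.0165) and IL12RB1 of 0.93 ± 0.289 (0.0281). Both were below the abundance set for naming and named after their values were seen. Their BRCA1-null DMSO libraries lay far apart, at 24 and 86 counts for IL31RA and 89 and 174 counts for IL12RB1. Under entinostat, BRCA1+ and BRCA1-null means were 0.346 and 0.542 CPM for IL31RA and 1.65 and 1.26 CPM for IL12RB1. IL6R, the binding chain for IL-6, was at 9.51 and 6.36 CPM in BRCA1+ cells and 18.9 and 11.4 CPM in BRCA1-null cells (log2 fold change 0.93 ± 0.296, adjusted p = 0.0316).

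Downstream of the receptors, JAK1, the kinase most used by gp130, fell from 208 and 234 CPM in BRCA1+ cells to 137 and 141 CPM in BRCA1-null cells under DMSO. The separation was wide against the spread, with a log2 fold change of -0.67 ± 0.0779 (adjusted p = 1.66e-04). STAT5A was higher by 0.80 ± 0.158 (adjusted p = 0.00339) and STAT6 by 0.25 ± 0.0603 (0.0100). Of the 10 JAKs and other STATs 4 were called, 3 higher and 1 lower, with a median of -0.13. That number is close to the share called over all tested genes, 42.2%. In a list of 6 genes put together for the SHP2, MAPK and PI3K arm of gp130 signalling, 4 were lower and 0 higher, with a median of -0.35. Over all tested genes 21% were lower. PTPN11, which encodes SHP2 itself, was placed in the list of negative regulators and was higher, by 0.23 ± 0.0478 on the log2 scale (adjusted p = 0.00438). GAB1, the docking protein of that arm, went from 12.0 and 10.8 CPM in BRCA1+ cells to 4.24 and 4.75 CPM in BRCA1-null cells (log2 fold change -1.34 ± 0.131, adjusted p = 5.99e-05). FRS2, SOS1 and PIK3R1 were the other 3, at -0.45, -0.38 and -0.31.

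Other negative regulators were mixed, with 14 of 15 tested, 2 higher and 3 lower, and a median of 0.06. Across all tested genes 42.2% were called. SH2B3, an adaptor that restrains JAK2, was higher in BRCA1-null cells by 1.38 ± 0.161 on the log2 scale (adjusted p = 1.66e-04), from 22.3 and 15.6 CPM to 48.5 and 49.8 CPM. Besides SH2B3, PTPN11 was the other higher gene, and PIAS3, an inhibitor of STAT3, was lower (log2 fold change -0.23 ± 0.0680, adjusted p = 0.0237). Signals through growth hormone and STAT5 are those that SOCS2 and CISH are best known to restrain. In a list of receptors that use STAT5 and of IGF1, 7 of 9 genes were tested and 1 was called under DMSO, EPOR, at -0.26 ± 0.0906 (adjusted p = 0.0440).

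Genes known as STAT3 targets were described as a list of 38, of which 28 were tested. Under DMSO 14 were higher and 4 lower in BRCA1-null cells, with a median of 0.40. Across all tested genes 21.1% were higher and 21% lower, with a median of 0.012. MUC1 was higher by 1.97 ± 0.502 (adjusted p = 0.0119), ICAM1 by 1.12 ± 0.105 (4.63e-05) and TNFAIP2 by 1.03 ± 0.0851 (2.45e-05). EGR1 was lower, at 20.1 and 12.7 CPM in BRCA1+ cells and 4.37 and 2.61 CPM in BRCA1-null cells (log2 fold change -2.25 ± 0.364, adjusted p = 0.00112). The list also holds IL6R, and several of its genes, ICAM1 and TNFAIP2 among them, are known NF-kB targets as well. A list of NF-kB, AP-1 and interleukin 1 genes holds factors that can induce IL6 and LIF, together with NF-kB inhibitors and chemokines driven by the same factors. It had 20 of 22 genes tested, 15 higher and 1 lower, with a median of 0.80. IL1A went from 3.10 and 3.31 CPM in BRCA1+ cells to 23.4 and 18.0 CPM in BRCA1-null cells (log2 fold change 2.68 ± 0.168, adjusted p = 5.73e-06), and TNFAIP3, an inhibitor of NF-kB, was higher by 2.11 ± 0.117 (2.96e-06).

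**Figure D4:**
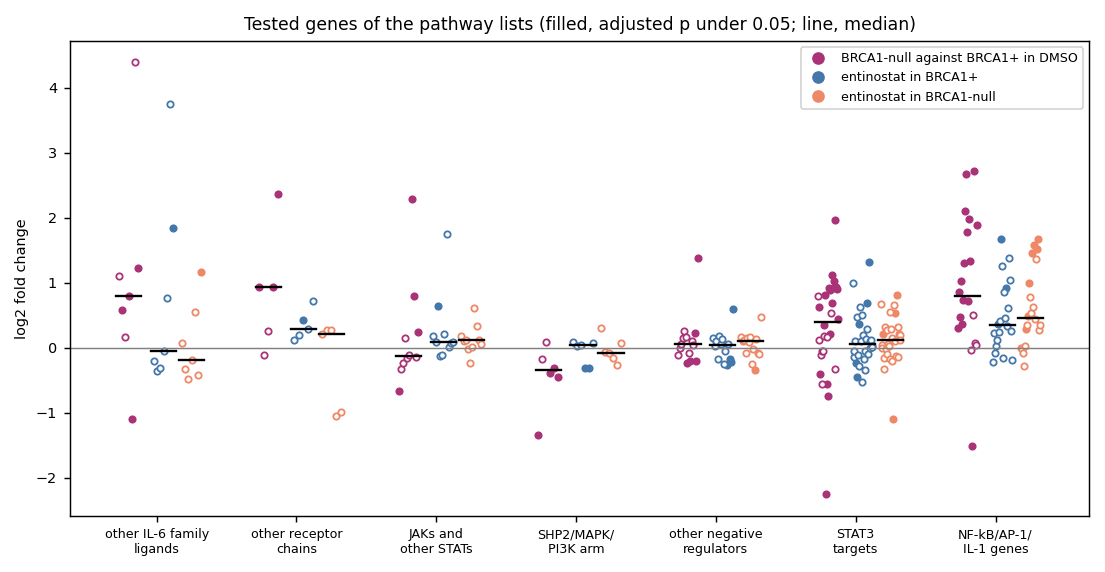
Log2 fold change of the tested genes of each pathway list for BRCA1-null against BRCA1+ cells in DMSO and for entinostat against DMSO in each line; filled points have an adjusted p under 0.05 and lines mark medians. The NF-kB, AP-1 and interleukin 1 list lies mostly above 0 for the lines (median 0.80), and the SHP2, MAPK and PI3K list mostly below 0 (median -0.35).

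Between the lines under entinostat, the NF-kB, AP-1 and interleukin 1 list had 15 higher and 1 lower with a median of 0.99, the STAT3 targets 12 higher and 3 lower with a median of 0.32, and the SHP2, MAPK and PI3K list 0 higher and 4 lower. The ligand list had 4 higher and 1 lower, the JAKs and other STATs 4 higher and 2 lower and the other negative regulators 2 higher and 1 lower. Across all tested genes 20.5% were higher and 18.9% lower in this comparison. Of the receptor chains only IL6R was called, and the list's median was 0.11, against 0.93 under DMSO. JAK1 was again lower (log2 fold change -0.68 ± 0.0779, adjusted p = 1.55e-04), and STAT5A was higher by 1.11 ± 0.159 (5.56e-04). Within a line, entinostat raised a few of the listed genes and lowered others. In BRCA1+ cells 3 other negative regulators were lower and 1 higher, and 2 STAT3 targets were lower and 3 higher. The SHP2, MAPK and PI3K list had 2 lower and 0 higher there. In BRCA1-null cells 1 negative regulator was lower and 0 higher, and 1 STAT3 target was lower and 3 higher. Of all tested genes 6% were lower and 8.13% higher with entinostat in BRCA1+ cells, and 3.19% lower and 7.57% higher in BRCA1-null cells. EBI3 rose from 1.18 and 0.937 CPM to 4.35 and 3.34 CPM in BRCA1+ cells (log2 fold change 1.84 ± 0.241, adjusted p = 0.00231) and from 2.48 and 2.45 CPM to 5.91 and 5.15 CPM in BRCA1-null cells (1.17 ± 0.176, 0.00573). In the NF-kB, AP-1 and interleukin 1 list 3 genes rose in the BRCA1+ line and 7 in the BRCA1-null line, and IL1A and CXCL8, which encodes a chemokine, were called in both. EPOR rose in both lines, with a log2 fold change of 1.02 ± 0.0861 for the BRCA1+ line (adjusted p = 3.90e-04) and 0.75 ± 0.0876 for the BRCA1-null line (0.00221). The difference of the effects was called for 0 genes of any list.

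Position on the chromosome was also described, since the lines can differ over whole regions. Each member was set beside its 40 nearest tested genes, 20 on each side, for the difference between the lines under DMSO. The genes around IL6 on chromosome 7 had a median log2 difference of 0.41, with 21 higher and 2 lower, and 6 of the 40 were above IL6. Those around IL6ST on chromosome 5 had a median of -0.55, with 4 higher and 22 lower, and IL6ST was called in the direction of these 22. Around SOCS3 on chromosome 17, 22 of the 40 neighbours were higher and 2 lower, with a median of 0.46, and 35 of them stood above SOCS3. Most genes in that stretch were thus higher in BRCA1-null cells, while SOCS3 was not called.

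The 40 neighbours of SOCS2 on chromosome 12 had a median of -0.07, with 8 higher and 7 lower, and 38 of them stood above SOCS2. The neighbours of CISH on chromosome 3 had a median of 0.13, with 16 higher and 1 lower, and 5 stood above CISH. LIFR and OSMR lie near each other on chromosome 5 and share neighbours, with a median of 0.11 and 8 higher and 6 lower around each. Around LIF, STAT3 and SOCS1 the medians were -0.05, 0.08 and -0.04. In all, 6 of the 10 members lay outside the interquartile range of their neighbours under DMSO and 4 under entinostat, a range that by definition holds as many of the neighbours as it leaves out. Copy number was not measured here, and its part in these differences was not tested.

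**Figure D5:**
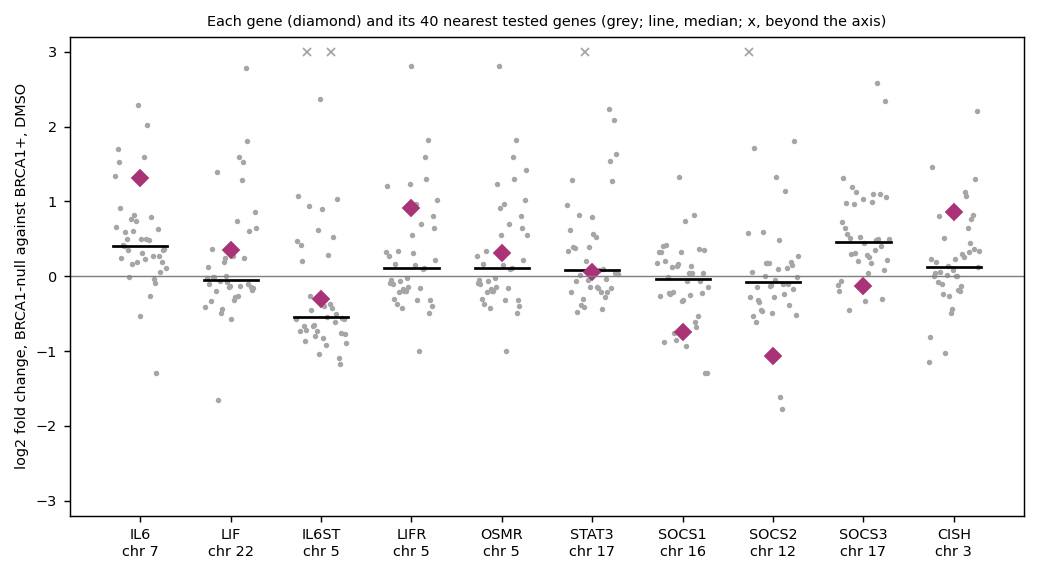
Log2 fold change of BRCA1-null against BRCA1+ cells in DMSO for each of the 10 genes (diamonds) and its 40 nearest tested genes (grey points, with a line at their median); crosses mark genes beyond the axis. The neighbours of IL6 and SOCS3 lie mostly above 0 (medians 0.41 and 0.46) and those of IL6ST below (median -0.55), while SOCS2 lies under 38 of its 40 neighbours.

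The summed levels of markers of other cell types moved with line and drug, while single markers differed in direction. The summed level of 10 fibroblast markers was 14.7 to 20.1 CPM in BRCA1+ DMSO libraries, 28.8 to 36.6 CPM in BRCA1+ entinostat, 40.5 to 57.4 CPM in BRCA1-null DMSO and 59.5 to 85.4 CPM in BRCA1-null entinostat, with COL3A1, DCN and LUM at 0 in all 8 libraries. That order of groups is also the order of the IL6, LIF and OSMR means. Among the fibroblast markers, the means of COL1A2 and THY1 kept that order, and those of COL1A1 and ACTA2 did not. The 12 leukocyte markers summed to 16.7 to 18.0, 23.2 to 25.4, 27.2 to 30.0 and 31.5 to 39.8 CPM in the same groups. CD3D, MS4A1 and TYROBP were at 0 in every library. CD68 led this sum, with means of 9.01, 12.4, 21.2 and 28.1 CPM. Under DMSO, CD14 averaged 2.61 CPM in BRCA1+ and 0.65 CPM in BRCA1-null cells, and PTPRC 2.98 and 2.60 CPM. Of 7 leukocyte markers tested between the lines under DMSO, 2 were higher and 1 lower, with a median log2 difference of -0.098. The 6 endothelial markers, led by CDH5, summed to 9.71 to 16.4, 27.5 to 38.7, 37.1 to 54.5 and 75.5 to 93.2 CPM. Among them PECAM1 averaged 5.42 CPM in BRCA1+ and 2.87 CPM in BRCA1-null cells under DMSO. In bulk RNA a change in the share of some cells and a change in RNA per cell cannot be told apart, and the part of these markers in the results was not tested.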

How the data were processed

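Polyadenylated RNA from 8 libraries, 2 in each of 4 groups, was sequenced on HiSeq instruments. The authors used TopHat for alignment against hg19 and NGSUtils for counting, and the deposited values are raw counts per gene. Handling of strand in the counting is not given in the sources used here. 1 unnamed feature had 0 counts and was left out.

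Genes were kept with edgeR's filterByExpr (17714 of 25369), scaled with TMM factors and fitted with a mean for each group over all 8 libraries, which left 4 residual degrees of freedom. Tests were quasi-likelihood tests of edgeR 4.0.16 in R 4.3.3. The 5 contrasts were each line against the other in each treatment, entinostat against its solvent within each line, and how these effects differed. The mean of the entinostat effects was added after seeing the data. Calls are at a Benjamini-Hochberg adjusted p under 0.05 over all tested genes, and 95% intervals come from the same fit. The biological coefficient of variation was 9.041%. Per-length values divide CPM by the deposited transcript length. At most 4 called genes per list and contrast were named, from those whose mean log2 CPM reached 1. The members and lists were chosen with earlier results of these data known, and the lists were written from general knowledge of the pathway. Promoter windows of 250 bases came from the GRCh37 genome, the assembly of hg19.

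Alternatives were DESeq2 1.42.0 (size factors and Wald test), upper-quartile factors, no filter, a stricter filter (CPM of at least 1 in at least 2 libraries), edgeR's likelihood ratio test, the legacy quasi-likelihood form, a replicate block, only the groups compared, and each library left out. The fitting was tested on simulated data. The intervals include the spread between libraries, and the floor of 3 counts covers counting error only. 1 gene of the ligand list and 1 promoter window are not reported here.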

Additional observations from a re-analysis of the deposited data

How the results depend on the processing

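The number of members called between the lines was 3 to 7 under DMSO and 2 to 7 under entinostat when 1 library was left out, and 6 or 7 and 5 to 7 in the other alternatives. Within BRCA1+ cells, DESeq2's Wald test, the likelihood ratio test and the fit of only the groups compared each called 1 member, and leave-one-out fits called 0 to 1. Within BRCA1-null cells the Wald and likelihood ratio tests each called 1, and leave-one-out fits 0 to 1. For the mean of both lines leave-one-out fits called 0 to 2 of the members. The replicate numbers were shared by the groups. Deviations of same-numbered libraries correlated weakly but always positively, at 0.0523 to 0.287, and the main fit did not take them as pairs. IL6, IL6ST, LIFR, OSMR, STAT3 and SOCS3 were higher in replicate 1 than in replicate 2 in every group, and SOCS2 was lower. LIF, SOCS1 and CISH kept no such order. What the numbers stand for was not tested. The replicate block called 3 members for entinostat in BRCA1+ cells (LIF, LIFR, SOCS2), 2 in BRCA1-null cells (OSMR, SOCS2) and 7 for the mean of both lines. Over all tested genes it called 4314, 3640 and 6351, against 2503, 1906 and 4622 without it. Some values not past the threshold changed sign. For SOCS3 between the lines under entinostat the log2 fold change was -0.00038 with DESeq2's size factors, -0.0251 in its Wald test, -0.0149 in the likelihood ratio test, -0.0102 in the legacy form, -0.0290 in the replicate block and -0.00017 with only the groups compared. For STAT3 the difference of the entinostat effects was -0.0175 with upper-quartile factors and -0.0108 with the stricter filter. When 1 library was left out, SOCS3 ranged from -0.49 to 0.20 between the lines under DMSO and from -0.31 to 0.26 under entinostat. For entinostat in BRCA1-null cells IL6ST ranged from -0.0423 to 0.0726, SOCS1 from -0.0116 to 0.87 and CISH from -0.12 to 0.44. For the difference of the effects IL6 ranged from -0.40 to 0.0505, OSMR from -0.0293 to 0.15, STAT3 from -0.00935 to 0.0520, SOCS1 from -0.69 to 0.19, SOCS2 from -0.0742 to 0.52 and SOCS3 from -0.19 to 0.49. For the mean of both lines CISH ranged from -0.20 to 0.0757. The cause of these shifts was not tested. IL6, LIFR, SOCS1 and CISH had 15 to 150 counts per library.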
